A study of Mus musculus with 24 samples.

Results

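The proteasome genes of mouse thymocytes were examined in 3 early stages of T cell development, with and without the cytokine IL7. They were taken as every gene whose symbol starts with Psma, Psmb, Psmc, Psmd, Psme, Psmf or Psmg followed by a number. Of 45 such genes on the array, 43 had a probe with a detection p under 0.05 on at least 4 of the 24 arrays, among 8820 genes that passed this filter in all. The probe with the highest mean stood for each gene. Psma1 and Psma6, which encode alpha-ring subunits, were detected on no array. Of the 43 genes, 41 encode subunits, activators or assembly chaperones of the proteasome and are described here; 38 of them were detected on all 24 arrays, Psmd2 on 23, Psmd6 on 19 and Psmc6 on 6. The other two, Psmc3ip, which encodes a partner of meiotic recombinases, and Psme3ip1, carry such symbols without being subunits and are given apart. Psmb11, the catalytic subunit of thymic cortical epithelium, was not analysed here, nor were Psma8, Psmd3, Psmf1, Psmg4 and Psme2b.

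Thymocytes were sorted from C57BL/6J mice with intact IL7 receptor genes (Il7r+/+) in 4 independent sorts. DN3a cells were lineage-negative, cKit-negative and CD25-positive, with low CD71 and small size. DN3b cells had the same lineage, cKit and CD25 phenotype with high CD71 and large size, and DN4 cells were CD25-negative with high CD71 and large size. The cells of each subset rested for 1 h in culture, and were then given IL7 at 10 ng/ml or left untreated for 3 h, which makes 6 groups of 4 arrays. How many animals each sort pooled is not given in the sources used here, so the spread between sorts is that between preparations. Total RNA was hybridised to Illumina beadchips, whose bead intensities are given below as log2 levels after background correction and quantile normalization. A level can be compared between samples for 1 probe, not between probes.

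Between 10940 and 11660 probes were detected on each array, and arrays of 1 group correlated with each other at 0.9849 to 0.9942 over all kept probes. The T lineage list (Cd3e, Cd3g, Cd3d, Ptcra and Rag1 of 7 genes) passed the filter. Its 5 genes were all called lower in untreated DN3b than in untreated DN3a cells, by -1.27 to -0.74, against 31% of all genes. Of these, 4 passed as lower in untreated DN4 than in untreated DN3a cells, against 32.4% of all genes. Among markers of other cells, Hba-a1, a haemoglobin gene, was detected on the 12 arrays of sorts 1 and 3. Alas2, the other gene of the erythroid list on the array, was detected on no array. Summed myeloid markers reached 13.1 on the log2 scale in untreated DN4 cells against a lowest value of 7.18 in that group.

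The 26S proteasome degrades proteins tagged with ubiquitin. Its 20S core is a barrel of outer alpha rings and inner beta rings, in which Psmb5, Psmb6 and Psmb7 encode the constitutive catalytic subunits; the 19S cap, with a ring of ATPases (Psmc genes) and further subunits (Psmd genes), unfolds the substrate. In lymphoid cells and under interferon, Psmb8, Psmb9 and Psmb10 encode catalytic subunits that take the place of Psmb5, Psmb6 and Psmb7 in newly built immunoproteasomes, which favour peptides for MHC class I. Thymocytes pass from DN3a to DN3b, where they enlarge and divide, after a successful rearrangement of the T cell receptor beta gene.

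The promoters of the constitutive genes Psmb5 and Psmb6, of their immunoproteasome counterparts Psmb8 and Psmb9, and of the activator gene Psme1 are shown because these genes moved in opposite directions between the stages. Psmb7 and Psmb10 also did so but are not shown, because the promoter set used held no entry for them. Each runs from 250 bases before to 50 after the RefSeq start, on build GRCm38.p6. Psmb5 lies at chr14:54617946-54618245 on the reverse strand and Psmb6 at chr11:70525107-70525406 on the forward strand. Psmb8 lies at chr17:34197945-34198244 on the forward strand, Psmb9 at chr17:34187281-34187580 on the reverse strand, and Psme1 at chr14:55578244-55578543 on the forward strand. Capitals mark TGACNNNGC in Psmb5 and Psmb6, TTCNNNGAA in Psmb8 and GAAANNGAA in Psme1, searched on both strands. Psmb9 held none of the 3 motifs.
Psmb5: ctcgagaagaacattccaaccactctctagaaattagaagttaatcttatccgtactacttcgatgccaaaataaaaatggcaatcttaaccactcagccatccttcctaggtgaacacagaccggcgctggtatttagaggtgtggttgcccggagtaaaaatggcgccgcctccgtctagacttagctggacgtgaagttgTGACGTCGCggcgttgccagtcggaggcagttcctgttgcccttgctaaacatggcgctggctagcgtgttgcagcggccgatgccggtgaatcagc
Psmb6: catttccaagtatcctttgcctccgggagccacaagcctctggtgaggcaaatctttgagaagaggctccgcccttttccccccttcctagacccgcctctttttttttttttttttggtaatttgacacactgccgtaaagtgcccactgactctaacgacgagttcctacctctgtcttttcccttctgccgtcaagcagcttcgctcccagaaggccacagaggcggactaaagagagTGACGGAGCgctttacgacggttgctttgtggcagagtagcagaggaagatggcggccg
Psmb8: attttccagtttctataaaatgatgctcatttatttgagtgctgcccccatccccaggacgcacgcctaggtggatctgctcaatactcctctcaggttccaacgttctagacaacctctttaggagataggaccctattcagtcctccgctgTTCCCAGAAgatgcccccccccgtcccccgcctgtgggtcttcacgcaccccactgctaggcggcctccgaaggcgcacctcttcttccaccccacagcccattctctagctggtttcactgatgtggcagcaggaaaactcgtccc
Psmb9: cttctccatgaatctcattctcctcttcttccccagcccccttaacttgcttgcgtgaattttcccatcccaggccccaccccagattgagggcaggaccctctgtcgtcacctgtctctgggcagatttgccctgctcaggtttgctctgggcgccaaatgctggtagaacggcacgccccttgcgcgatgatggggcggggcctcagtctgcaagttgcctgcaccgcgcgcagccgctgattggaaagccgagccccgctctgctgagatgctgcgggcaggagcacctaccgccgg
Psme1: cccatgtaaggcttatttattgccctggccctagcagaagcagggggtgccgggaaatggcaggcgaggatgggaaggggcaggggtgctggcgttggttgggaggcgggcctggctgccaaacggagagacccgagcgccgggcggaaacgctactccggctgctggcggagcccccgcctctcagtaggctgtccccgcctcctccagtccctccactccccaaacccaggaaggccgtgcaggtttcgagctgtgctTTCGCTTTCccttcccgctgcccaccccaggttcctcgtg

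TGACNNNGC is the core of the antioxidant response element, which the factors encoded by Nfe2l1 and Nfe2l2 bind. It was found in promoters of 6 of the 35 proteasome genes with a RefSeq promoter in the table used (Psmb5, Psmb6, Psmc6, Psmd9, Psmd12 and Psme4), and in 12.4% of all 32851 promoters. TTCNNNGAA, the form of site that STAT factors bind, was found for Psmb8, Psmd2 and Psmg1 and in 8.3% of all promoters. GAAANNGAA, a shortened core of the interferon-stimulated response element, was found for Psmb3, Psmb4, Psmc2, Psmd4, Psmd9 and Psme1 and in 8.56% of all promoters. The motifs were searched separately and could overlap. The matches are letters in these windows and do not show binding.

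In untreated cultures, most proteasome genes were higher in DN3b than in DN3a cells, while the immunoproteasome subunits and Psme1 were lower. By limma over the 12 untreated arrays with the sort as a block, 24 of the 41 genes rose and 4 fell at an adjusted p under 0.05. That is 58.5% higher and 9.76% lower, against 24.9% higher and 31% lower among all genes. The median log2 change was 0.34 over the 41 genes and -0.03 over all genes. For 27 of the 41 genes the 4 DN3b arrays did not overlap the 4 DN3a arrays, a separation seen in 45.1% of all genes. Arrays measure shares of RNA in bulk samples, so a change in the mix of cells and a change per cell cannot be told apart.

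All 3 constitutive catalytic subunits rose in DN3b cells. Psmb5, the chymotrypsin-like subunit, had log2 levels of 9.49, 9.90, 9.19 and 9.23 (sorts 1 to 4 in turn) in untreated DN3b cells, against 8.31, 8.78, 8.24 and 8.83 in untreated DN3a cells. The lowest DN3b array stood above the highest DN3a array, and the difference was 0.91 ± 0.15 (SE), or 1.88-fold (adjusted p = 0.000537, higher in 4 of 4 sorts). Psmb6, the caspase-like subunit, had log2 levels of 12.40, 12.41, 12.35 and 12.35 in DN3b cells, against 11.90, 11.99, 11.44 and 11.55 in DN3a cells. Its DN3b values lay close together, with an SD of 0.03 against 0.26 in DN3a, and the 2 groups did not overlap (0.66 ± 0.10, adjusted p = 0.000198). Psmb7, the trypsin-like subunit, had log2 levels of 12.52, 12.44, 12.40 and 12.37 in DN3b cells, against 11.68, 11.83, 11.46 and 11.70 in DN3a cells. Again every DN3b array was above every DN3a array, by 0.77 ± 0.08 (1.70-fold, adjusted p = 2.09e-05).

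All 3 immunoproteasome subunits fell. Psmb10, which replaces Psmb7, had log2 levels of 10.94, 11.02, 11.28 and 11.38 in untreated DN3b cells, against 11.64, 11.71, 11.92 and 11.78 in untreated DN3a cells. Every DN3b array was below every DN3a array, and the level fell by 0.61 on the log2 scale (SE 0.08), to 0.655 of the DN3a level (adjusted p = 0.000125). Psmb8, which replaces Psmb5, had log2 levels of 9.39, 9.63, 9.47 and 9.49 in DN3b cells, against 10.06, 10.01, 9.72 and 9.99 in DN3a cells. These groups did not overlap either, with a change of -0.45 ± 0.10 (adjusted p = 0.00406). Psmb9, which replaces Psmb6, had log2 levels of 10.68, 10.77, 10.42 and 10.63 in DN3b cells, against 10.79, 10.92, 10.82 and 11.11 in DN3a cells. The gap between its groups was small and the change was the least of the 3, at -0.29 ± 0.09 (adjusted p = 0.0172). The call for Psmb9 was lost under 6 of 15 alternatives, among them leaving out sort 3 (-0.25) or sort 4 (-0.23), and that for Psmb8 only without sorts 1 and 3 (-0.44); Psmb10 and the 3 constitutive subunits kept theirs under all 15.

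**Figure D1:**
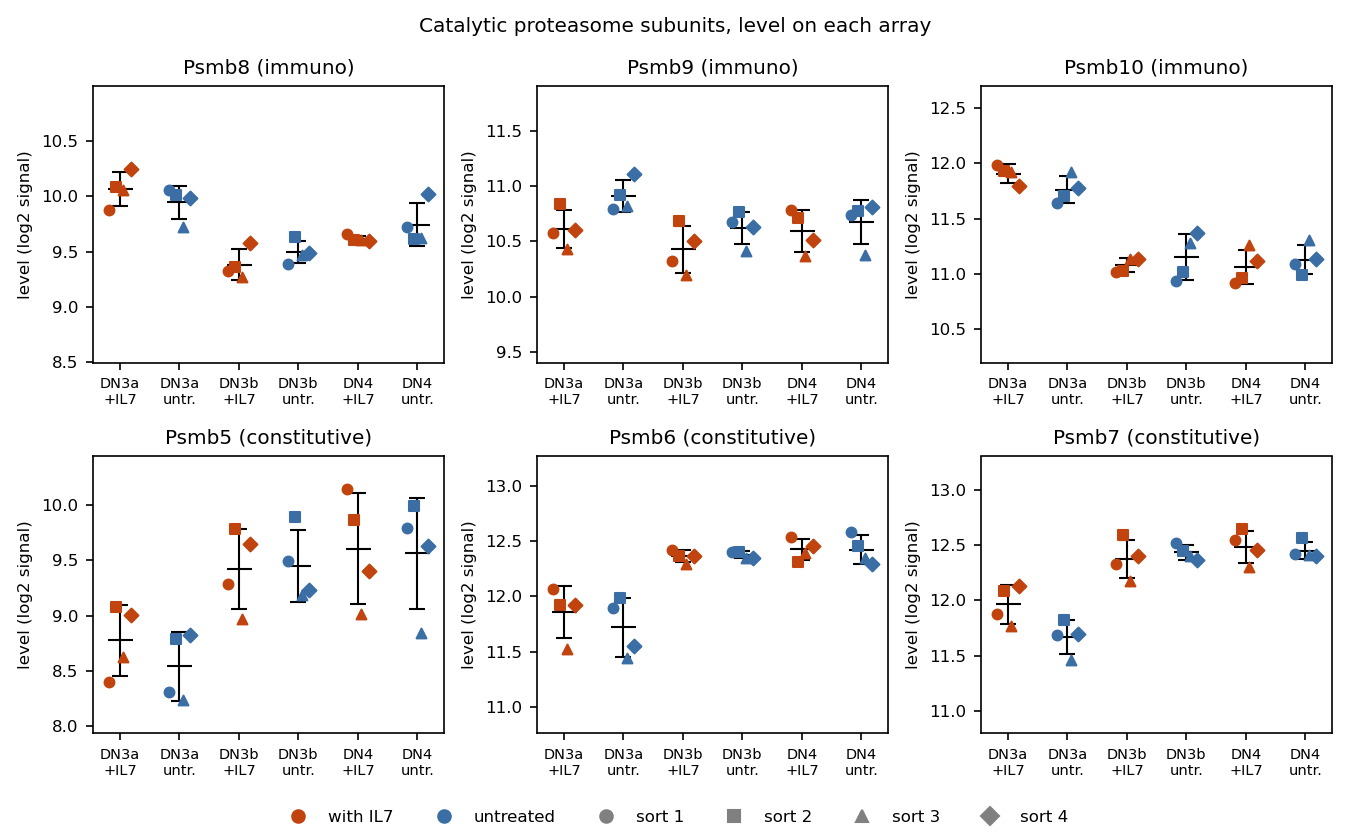
Log2 level of the 6 catalytic subunits on each of the 24 arrays, with immunoproteasome genes above the constitutive genes they replace; symbols mark the sort, bars the mean ± SD (n = 4), and every panel spans the same log2 range. In untreated cells Psmb8, Psmb9 and Psmb10 stand lower, and Psmb5, Psmb6 and Psmb7 higher, in DN3b than in DN3a, with no overlap between the 2 groups.

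The ratio of each immunoproteasome subunit to the constitutive subunit it replaces was followed within arrays, where the probes' own brightness cancels in a change. The log2 ratio of Psmb8 to Psmb5 changed by -1.85, -1.49, -1.20 and -0.90 in sorts 1 to 4 between untreated DN3b and DN3a cells. That of Psmb9 to Psmb6 changed by -0.62, -0.57, -1.31 and -1.28, and that of Psmb10 to Psmb7 by -1.54, -1.31, -1.58 and -1.07. Each pair fell in 4 of 4 sorts, and over the 3 pairs the mean change was -1.23 ± 0.15 (SD, n = 4 sorts), or 0.427 of the DN3a ratio. An exact two-sided sign-flip test gave each pair the smallest p that 4 sorts allow, which cannot pass 0.05 (adjusted p = 0.281 over 18 pair tests, Benjamini-Hochberg). With IL7 in both cultures the mean change between DN3b and DN3a was -1.08 ± 0.11.

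**Figure D2:**
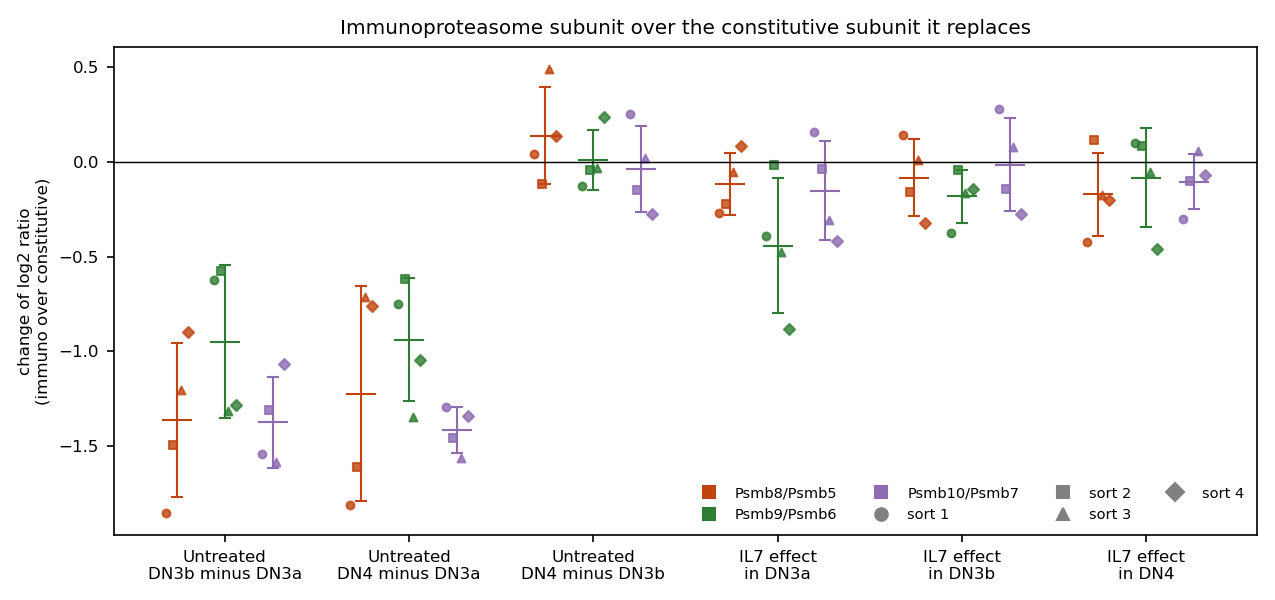
Change of the log2 ratio of an immunoproteasome subunit to the constitutive subunit it replaces, per sort (symbols) with the mean ± SD (n = 4), in 3 stage and 3 IL7 comparisons. All 12 values of the untreated DN3b minus DN3a comparison, and all 12 of DN4 minus DN3a, lie below 0, while the values of DN4 minus DN3b lie on both sides of it.

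The activators did not move together. Psme1 and Psme2 encode the alpha and beta subunits of PA28, a ring that opens the core and is induced by interferon gamma, and Psme3 encodes nuclear PA28 gamma. Psme1 had log2 levels of 12.34, 12.43, 12.23 and 12.43 in untreated DN3b cells, against 12.74, 12.87, 12.81 and 12.96 in untreated DN3a cells. All 4 DN3b values were below all DN3a values (-0.49 ± 0.07, adjusted p = 0.000224), and a second Psme1 probe also fell, by 0.33. Psme2 had log2 levels of 8.70, 8.76, 8.78 and 8.84 in DN3b cells, against 8.62, 8.49, 8.28 and 8.35 in DN3a cells. It thus stood higher in DN3b (0.34 ± 0.10, adjusted p = 0.0137), but the sign turned to -0.12 (adjusted p = 0.224) where both cultures had IL7, and the call was lost without sort 3 (0.28) or sort 4 (0.29). The near-identical copy Psme2b has no probe of its own name, so the Psme2 signal may hold both. Psme3 rose by 0.40 ± 0.07 (adjusted p = 0.0011), against 0.11 (adjusted p = 0.277) where both cultures had IL7, and Psme4, which encodes PA200, did not pass the test. In the reference order Psme1 and Psme2 are separated by the single protein-coding gene Emc9.

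In the 19S cap, 4 of 6 ATPase genes rose (Psmc1, Psmc3, Psmc4 and Psmc5). Psmc1 had log2 levels of 10.47, 10.48, 10.22 and 10.30 in untreated DN3b cells, against 9.22, 9.30, 9.24 and 9.11 in untreated DN3a cells. This gap of nearly a full log2 unit between the groups gave the greatest change of the 41 genes, 1.15 ± 0.09 or 2.22-fold (adjusted p = 2e-06). Psmc5 had log2 levels of 10.88, 11.32, 10.97 and 10.82 in DN3b cells, against 9.96, 10.28, 10.14 and 10.36 in DN3a cells. Its groups were also apart (0.81 ± 0.10, adjusted p = 8.45e-05). Of the non-ATPase subunits, 7 of 10 rose (Psmd1, Psmd2, Psmd7, Psmd8, Psmd12, Psmd13 and Psmd14), by 0.30 to 0.80; Psmd14, the deubiquitinase of the lid, rose most. Psmd4, a ubiquitin receptor, had a change of -0.12 and did not pass, nor did Psmd6 and Psmd11.

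The 3 measured Psmg genes, whose products help to assemble the core, all rose. Psmg1, one of the chaperones that assemble the alpha ring, had log2 levels of 9.38, 9.51, 9.67 and 9.36 in untreated DN3b cells, against 8.61, 8.40, 8.62 and 8.38 in untreated DN3a cells. Every DN3b array was higher, by 0.97 ± 0.09 or 1.97-fold (adjusted p = 6.56e-06). Its partner Psmg2 rose by 0.58 and Psmg3 by 0.41. The 3 chaperones of the 19S base, Psmd5, Psmd9 and Psmd10, did not pass, at 0.12, 0.27 and 0.19, though a second Psmd9 probe did (0.45, adjusted p = 0.0137).

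Among the core's structural subunits the changes were smaller. In the alpha ring 2 of 5 measured genes rose, Psma7 by 0.60 and Psma5 by 0.27. Of the non-catalytic beta subunits Psmb2, Psmb3 and Psmb4 rose by 0.21, 0.42 and 0.19, with Psmb4 just inside the threshold (adjusted p = 0.0498), while Psmb1 stood at 0.02. All 10 further probes of the called genes had the same sign and passed the test. Of 6 further probes of genes that were not called, those of Psmd9 and Psmd11 (0.36, adjusted p = 0.0447) passed. Psmc3ip, which is no subunit, rose by 0.93 (adjusted p = 1.86e-05) and Psme3ip1 did not pass (0.07).

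**Figure D3:**
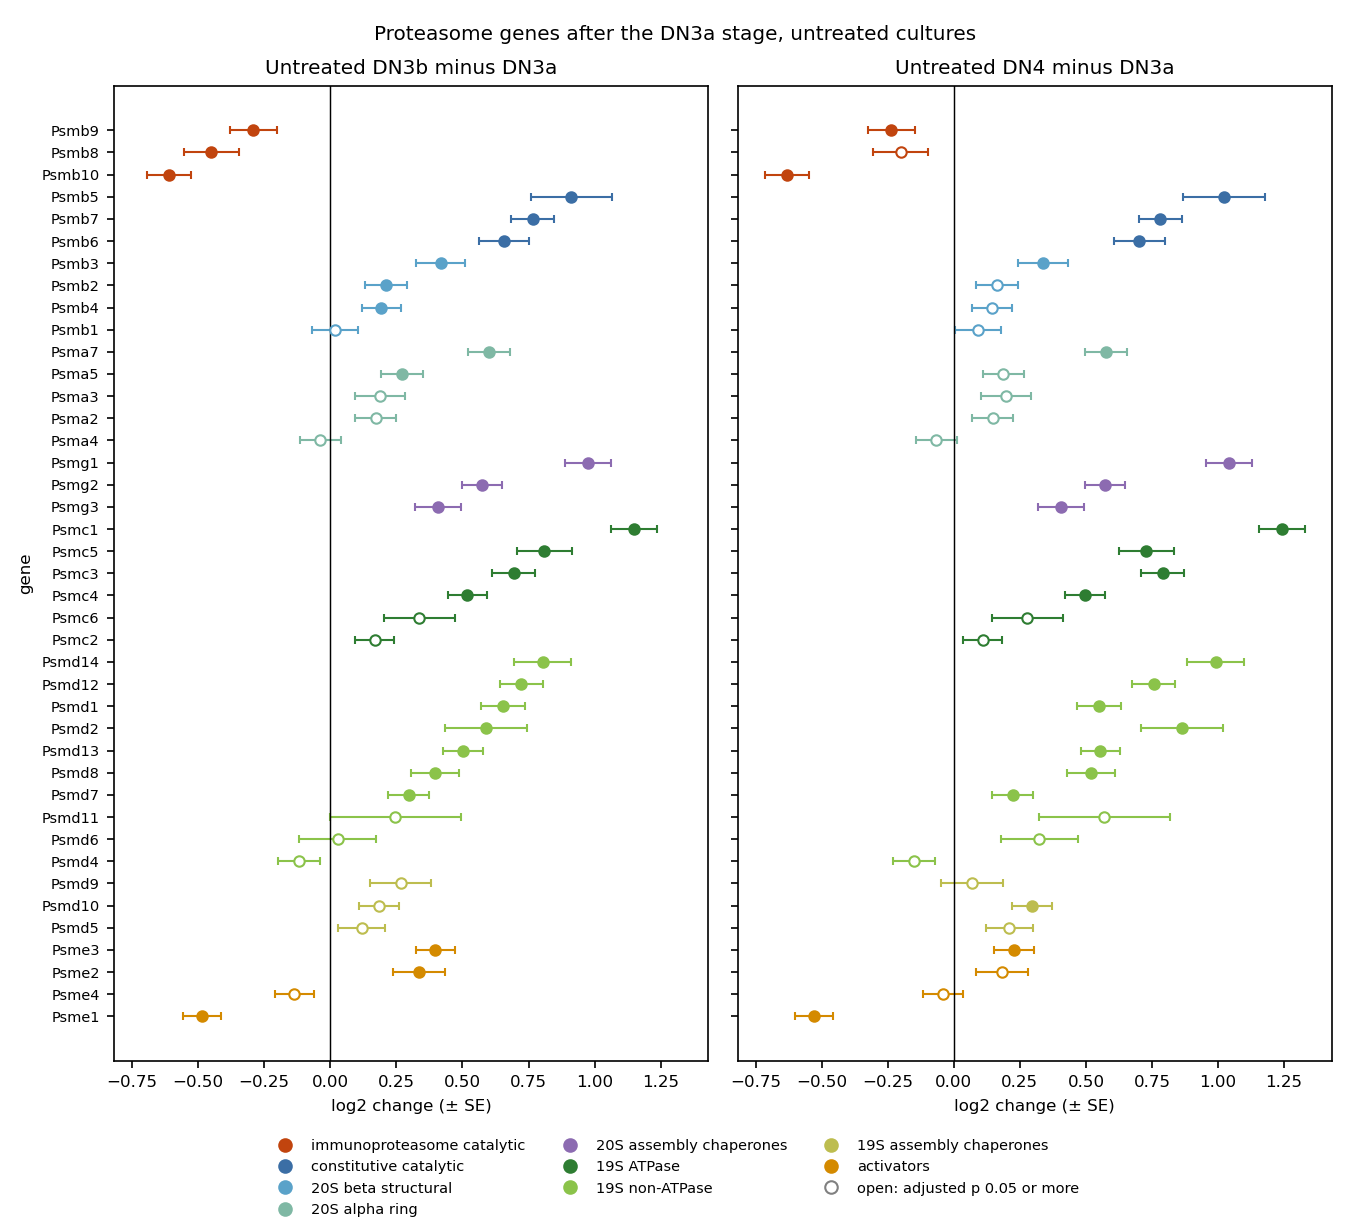
Log2 change (± limma SE) of the 41 proteasome genes in untreated DN3b (left) and DN4 (right) cells against the same untreated DN3a arrays, coloured by role; filled points have an adjusted p under 0.05. The 3 immunoproteasome genes and Psme1 lie left of 0 and the 3 constitutive catalytic genes right of it in both panels, with Psmb8 open in the right one.

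In untreated DN4 cells, 21 proteasome genes stood higher and 3 lower than in untreated DN3a cells (51.2% and 7.32%, against 26.8% and 32.4% of all genes). The 4 DN4 arrays did not overlap the 4 DN3a arrays for 22 of the 41 genes, against 46.6% of all genes. This comparison shares its DN3a arrays with the one above, so the values are given side by side and not as a second test. Psmb5, Psmb6 and Psmb7 rose by 1.02, 0.70 and 0.78. Psmb10 fell by 0.63 (adjusted p = 8.57e-05) and Psmb9 by 0.24 with overlapping groups (adjusted p = 0.0412, a call lost under 8 of 15 alternatives, among them leaving out sort 2, 3 or 4, with -0.27, -0.17 and -0.22). Psmb8 did not pass, with log2 levels of 9.72, 9.61, 9.62 and 10.02 in DN4 cells, against 10.06, 10.01, 9.72 and 9.99 in DN3a cells; the sort 4 array of DN4 lay within the DN3a range (-0.20 ± 0.11, adjusted p = 0.126).

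The other genes called in DN4 included Psmc1 at 1.24, Psmg1 at 1.04 and Psmd14 at 0.99. Psmd14 had log2 levels of 9.69, 9.66, 9.03 and 9.27 in untreated DN4 cells, against 8.37, 8.55, 8.23 and 8.54 in untreated DN3a cells, with no overlap (adjusted p = 2.04e-05). Psme1 fell by 0.53 (adjusted p = 0.000111), and the base chaperone Psmd10 rose by 0.30. A second Psmd9 probe (0.44, adjusted p = 0.0142) and a second Psmd11 probe (0.65, adjusted p = 0.00196) passed where the brighter probes did not. Of 11 further probes of called genes 10 passed, and a second Psmg2 probe did not (0.40, adjusted p = 0.0692). The mean change of the 3 immuno to constitutive ratios was -1.19 ± 0.10 (SD, n = 4 sorts).

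Between untreated DN4 and DN3b cells no proteasome gene passed the test, where 1.45% of all genes were higher and 2.57% lower by limma. At an unadjusted p under 0.05, for which no share of all genes is given here, there were 2, of which 1 was higher and 1 lower. The smallest adjusted p was 0.25, for Psmb8 (0.25, or log2 levels of 9.72, 9.61, 9.62 and 10.02 in DN4 cells against 9.39, 9.63, 9.47 and 9.49 in DN3b cells). The 41 changes ran from -0.20 to 0.32 with a median of 0.00, and the mean ratio of immunoproteasome to constitutive subunits moved by 0.04 ± 0.11.

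The stage difference was read again in the 12 IL7-treated arrays, which come from the same 4 sorts and are no independent repeat. There 16 proteasome genes were higher and 4 lower in DN3b than in DN3a cells (against 23% and 27.7% of all genes), with a median of 0.17. Of the 28 genes called in untreated cultures, 19 were called in the same direction with IL7. Psmb5, Psmb6 and Psmb7 rose by 0.64, 0.50 and 0.41 there, smaller values than in untreated cultures. The direct test of that gap, the difference of IL7 effects between DN3b and DN3a, passed for none of the 3. Psmb10 stood at -0.83 and Psmb8 at -0.69, both past the threshold, and Psmb9 at -0.18 did not pass. Psma4, an alpha subunit, was lower here (-0.24, adjusted p = 0.0335). Between DN4 and DN3a cells with IL7, 15 were higher and 4 lower (against 24.5% and 29.5% of all genes), and 15 of the 24 untreated calls recurred. There Psmb8 passed at -0.45 (adjusted p = 0.00161), Psmb10 stood at -0.84 and Psmb9 at -0.01 (adjusted p = 0.908). Psmd4 (-0.24), Psmd5 (0.42) and Psmd9 (0.32) passed by their brightest probes in this comparison only among the 12 made. Between DN4 and DN3b cells with IL7 none passed (against 2.44% and 3.59%). How large a share of the untreated calls recurred over all genes is not given here for either comparison with DN3a.

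The class I antigen-processing genes, to which immunoproteasome peptides pass, were read beside these genes. Of 10 measured genes of a list of 13, 8 fell and 1 rose in untreated DN3b against DN3a cells (against 31% lower and 24.9% higher among all genes). The 4 with the greatest change were Nlrc5, the class I transactivator, at -1.68 ± 0.15 (adjusted p = 5.76e-06), Irf1, an interferon regulatory factor, at -1.17 ± 0.07 (adjusted p = 6.25e-07), Tap2, a chain of the peptide transporter, at -1.11 ± 0.13 (adjusted p = 3.69e-05), and the chaperone gene Calr at 1.03 ± 0.13 (adjusted p = 7.17e-05). In the reference order on chromosome 17, Psmb8 lies between Tap1 and Tap2, and Psmb9 next to Tap1. Of a list of 25 proteasome cofactors, 13 were measured, of which 3 passed as higher and 3 as lower, near the shares of all genes given above. Uchl5 and Usp14, deubiquitinases that bind the cap, rose by 1.51 and 0.47 and Rad23b also rose. Nfe2l1, which encodes the factor that raises proteasome genes when proteasomes are inhibited, fell by 0.78 (adjusted p = 0.000108), as did the ligase gene Ube3c, by 0.42, and Ubqln1.

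Markers of other cells also differed between the stages. The NK and cytotoxic list, of which Nkg7 and Gzma passed the filter and Ncr1 was detected on no array, summed to 8.07 to 8.89 on the log2 scale in untreated DN3b cells, against 10.89 to 11.17 in untreated DN3a cells. Of its 2 measured genes Nkg7 fell by 2.95, while Gzma stood at 0.24 and did not pass. On the untreated DN3a arrays Nkg7 alone of this list was detected, and Gzma, Ncr1 and Klrb1c on none. The dendritic list (Irf8 and Siglech of 5 passed, Itgax on no array) summed to 7.33 to 7.59 in DN3b cells, against 7.70 to 8.06 in DN3a cells, with Irf8 at -1.22 and Siglech, which did not pass, at -0.14. Its other genes, Flt3 and H2-Aa, were detected on no untreated DN3a array. The myeloid list, of which all 6 passed, summed to 7.18 to 8.54 in DN3b cells, against 7.88 to 10.16 in DN3a cells, and 1 of its genes, Lyz2, was called (-2.06). In untreated DN4 against DN3a cells 4 of the 6 myeloid genes were called higher, against 26.8% of all genes, Camp by 2.15 and S100a8 by 2.07 among them. In the same comparison Nkg7 fell by 4.83, Gzma rose by 0.35, Irf8 fell by 1.21 and Siglech by 0.49. The part of such cells in the changes of the proteasome genes was not tested. For untreated DN3b against DN3a cells, the mean ratio change was -1.10 without sorts 1 and 3, where Hba-a1 was detected. It was -1.21 without sorts 2 and 3, those with most granulocyte transcripts. Such readings of DN4 against DN3a cells are not given here. Each of the 2 DN3b readings leaves 2 sorts and is no test of that part. Neither can address Nkg7, Lyz2 or Irf8, which were detected on all 4 untreated DN3a arrays.

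**Figure D4:**
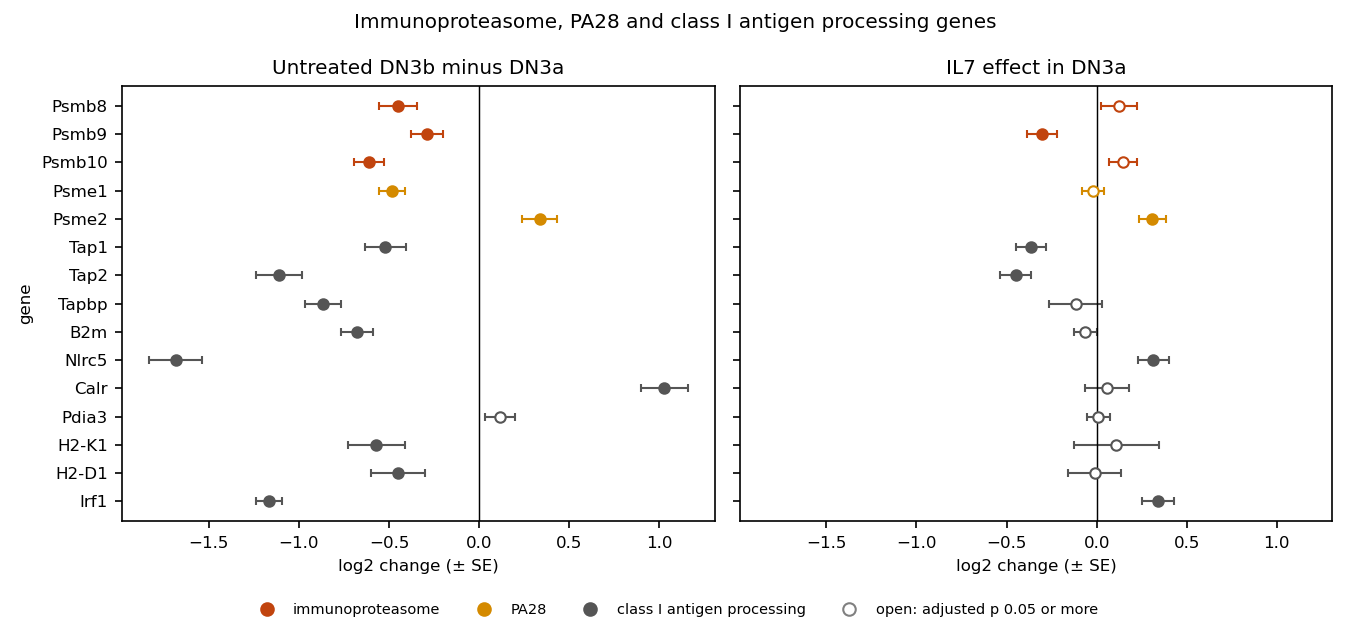
Log2 change (± limma SE) of the immunoproteasome, PA28 and measured class I antigen-processing genes in untreated DN3b against DN3a cells (left) and in IL7-treated against untreated DN3a cells (right), on 1 common scale; filled points have an adjusted p under 0.05. In the left panel all of these but Psme2, Calr and Pdia3 lie left of 0, and in the right panel Psmb9, Tap1 and Tap2 are the filled points left of 0.

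IL7 signals through JAK kinases and STAT5 in these cells. In DN3a cells, 3 h of IL7 raised 12 of the 41 proteasome genes and lowered 1 by limma over the 24 arrays with culture pairs as blocks (29.3% and 2.44%, against 9.44% and 11.5% of all genes). The changes were small, with a median of 0.16 on the log2 scale against -0.03 over all genes, and 34 of the 41 were above 0. For 9 genes the 4 IL7 arrays lay above the 4 untreated arrays without overlap, where 14.5% of all genes showed no overlap. The count of calls depended on having all 4 sorts: it was 8 without sort 1, 6 without sort 2, 6 without sort 3 and 6 without sort 4, and 7 without the pairing. Without sorts 1 and 3 it was 1, and without sorts 2 and 3 it was 0. The shares of all genes under these settings are not given here. A loss of calls in general and one particular to these genes therefore cannot be told apart.

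Of the activators, Psme3 had the clearest change with IL7. It had log2 levels of 10.47, 10.37, 10.71 and 10.66 in IL7-treated DN3a cells of sorts 1 to 4, against 10.10, 9.94, 10.10 and 10.21 in untreated DN3a cells. All IL7 arrays were above all untreated arrays, by 0.47 ± 0.07 or 1.38-fold (adjusted p = 0.000595). Psme2 had log2 levels of 8.75, 8.71, 8.78 and 8.74 with IL7, against 8.62, 8.49, 8.28 and 8.35 untreated. These did not overlap (0.31 ± 0.08, adjusted p = 0.0113), though the call was lost without sort 2 (0.34), sort 3 (0.24) or sort 4 (0.28). Psme1 was at -0.02 by its brighter probe and at 0.30 (adjusted p = 0.00542) by its second probe, so its probes disagreed.

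In the 19S cap, 5 of 6 ATPase genes passed as higher with IL7, Psmc6 among them near background, and Psmc3 (0.05) did not pass. Psmc5 had log2 levels of 10.50, 10.79, 10.38 and 10.75 in IL7-treated DN3a cells, against 9.96, 10.28, 10.14 and 10.36 in untreated DN3a cells. The lowest IL7 array stood just above the highest untreated array (0.42 ± 0.08, adjusted p = 0.00288). Psmc1, Psmc2 and Psmc4 rose by 0.36, 0.27 and 0.29. The fit gave Psmc6 0.48, but it was detected on 2 of 4 IL7 arrays and on none of the untreated DN3a arrays. Its log2 levels were 5.38, 4.80, 6.00 and 5.15 with IL7, against 4.77, 4.72, 5.20 and 4.72 untreated, so the groups overlapped. Raising the untreated values to the detection floor left 1.1-fold, which is no strict bound because 2 IL7 arrays were not detected either. The Psmc6 call was lost without sort 1 (0.44), sort 3 (0.37) or sort 4 (0.50). Of the non-ATPase genes Psmd1, Psmd12 and Psmd14 rose. Psmd12 had log2 levels of 10.21, 10.56, 10.31 and 10.47 with IL7, against 10.03, 10.05, 9.87 and 10.04 untreated, again without overlap (0.39 ± 0.08, adjusted p = 0.00322). A second Psmd12 probe did not pass (0.10, adjusted p = 0.723), and a second probe of Psmd7, which was not called, did (0.41, adjusted p = 0.00471). In all, 2 of 4 further probes of genes called with IL7 passed.

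In the core, Psma4 rose by 0.19 and Psmb7 by 0.30 with IL7 in DN3a cells. Psmb7 had log2 levels of 11.87, 12.08, 11.76 and 12.13 in IL7-treated DN3a cells, against 11.68, 11.83, 11.46 and 11.70 in untreated DN3a cells, so the groups overlapped while each sort rose (adjusted p = 0.0143; lost without sort 2, at 0.31, or sort 4, at 0.25). Psmb5 (0.24, adjusted p = 0.175) and Psmb6 (0.14) did not pass. Psmb9 was the 1 gene that fell, with log2 levels of 10.58, 10.84, 10.43 and 10.60 with IL7, against 10.79, 10.92, 10.82 and 11.11 untreated. Each sort fell, although the IL7 array of sort 2 lay above 2 untreated arrays (-0.30 ± 0.08, adjusted p = 0.0214), and the call was lost without sort 1 (-0.33), sort 3 (-0.27) or sort 4 (-0.23). Psmb8 (0.12) and Psmb10 (0.15) did not pass, and a second Psmb10 probe passed at 0.32 (adjusted p = 0.033), as did a second Psma7 probe at 0.23 (adjusted p = 0.0264). Of 2 further Psmb7 probes 1 passed, at 0.29, and the other stood at 0.19 (adjusted p = 0.108).

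Beside Psmb9, the nearby genes Tap1 and Tap2 fell with IL7 in DN3a cells, by 0.36 (adjusted p = 0.0068) and 0.45 (adjusted p = 0.00234). Irf1 and Nlrc5 rose, by 0.34 and 0.31, and the other 6 measured class I genes did not pass (against 9.44% higher and 11.5% lower among all genes). The mean immuno to constitutive ratio changed by -0.24 ± 0.14 (SD, n = 4 sorts), lower in 4 of 4 sorts. The pair of Psmb9 and Psmb6 moved most (-0.44, lower in 4 of 4 sorts). Those of Psmb8 and Psmb5 (-0.115) and of Psmb10 and Psmb7 (-0.15) were each lower in 3 sorts and higher in 1. The last pair, and so the mean, depends on the probe. The brighter Psmb10 probe used here stood at 0.15 and the second at 0.32, beside 0.30 for Psmb7. With IL7 the mean ratio changed by -0.09 ± 0.12 in DN3b cells and -0.12 ± 0.13 in DN4 cells, each lower in 3 of 4 sorts. The NK and cytotoxic list summed to 11.46 to 11.94 on the log2 scale in IL7-treated DN3a cells, against 10.89 to 11.17 in untreated DN3a cells, and the dendritic list to 8.11 to 8.24 with IL7, against 7.70 to 8.06 untreated. Within these lists Nkg7 (0.78) and Irf8 (0.66) rose, Siglech fell by 0.44, and Gzma stood at -0.21 and did not pass. Gzma, Ncr1, Klrb1c, Itgax, Flt3 and H2-Aa were detected on no DN3a array, with or without IL7. Of the myeloid list Lyz2 fell by 0.92 and the other 5 did not pass. The part of such cells in these changes was not tested.

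**Figure D5:**
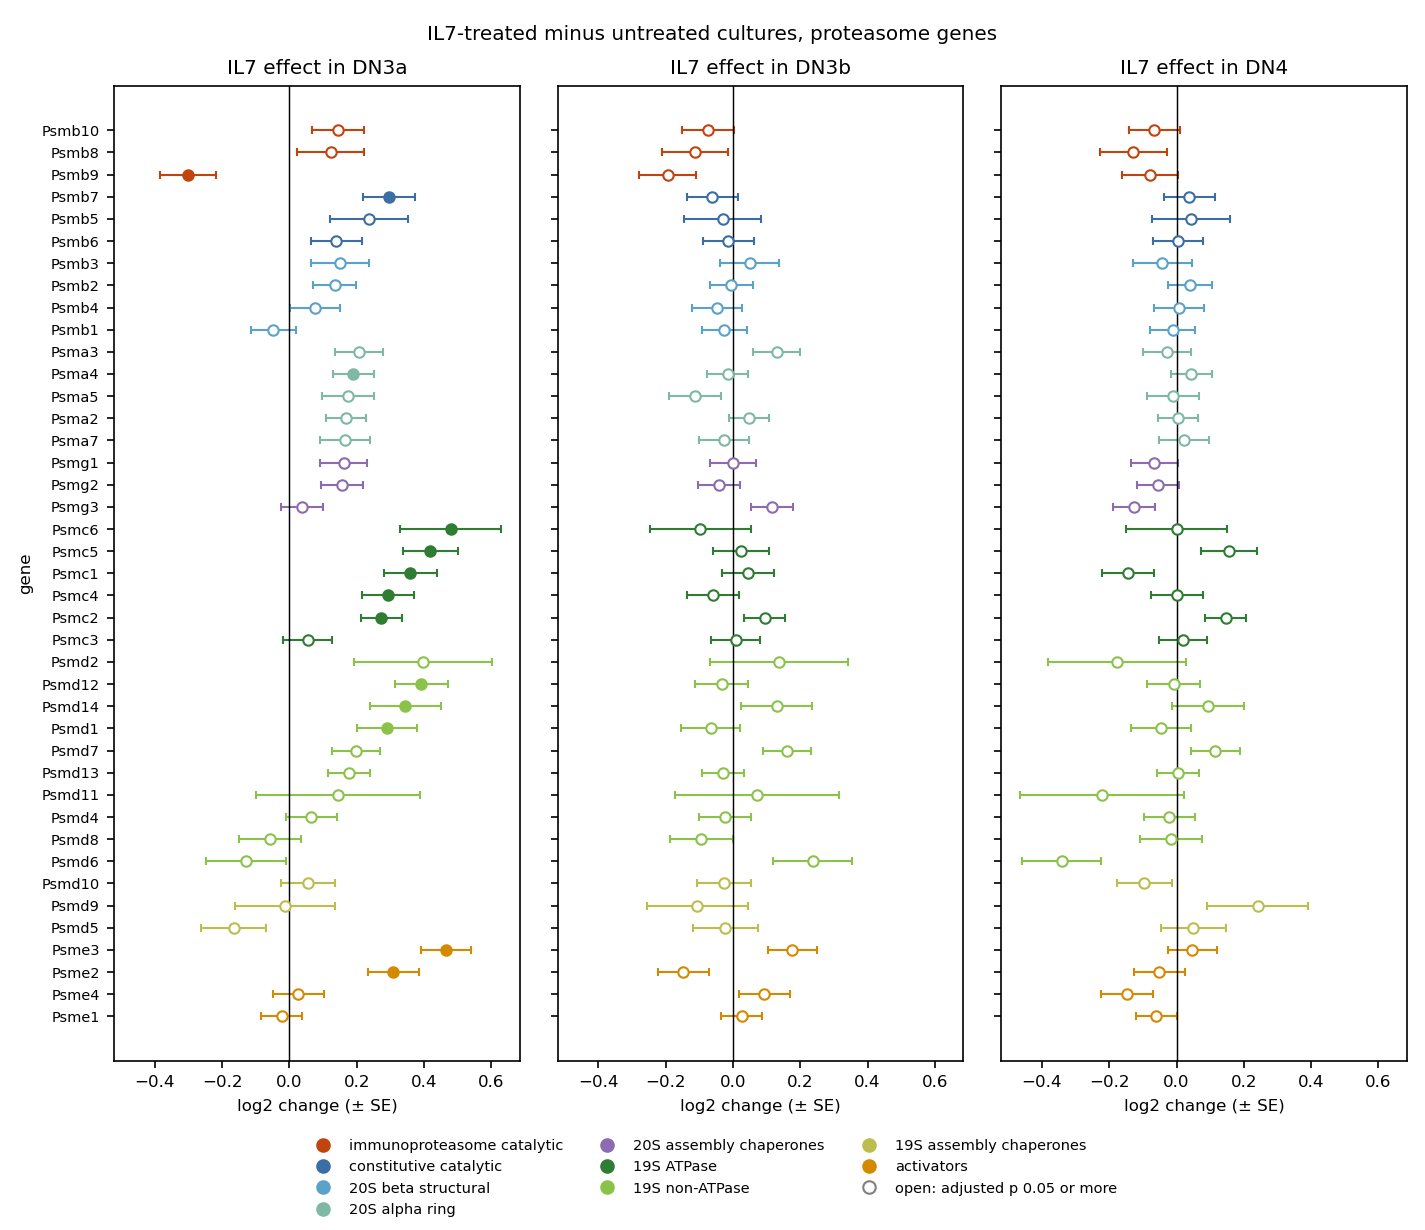
Log2 change (± limma SE) of the 41 proteasome genes with IL7 in DN3a, DN3b and DN4 cells, coloured by role and sorted by the DN3a value within each role; filled points have an adjusted p under 0.05. The DN3a panel holds 12 filled points right of 0 and Psmb9 left of it, and the DN3b and DN4 panels hold no filled point.

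In DN3b cells no proteasome gene passed the test for IL7 (against 4.8% higher and 5.01% lower among all genes), and in DN4 cells none did either (1.86% and 0.578%). At an unadjusted p under 0.05 limma gave 3 genes in DN3b, of which 2 were higher, and 2 genes in DN4, of which 1 was higher. The share of all genes at that threshold is not given here. The smallest adjusted p was 0.181 for Psme3 in DN3b (0.18 ± 0.07) and 0.232 for Psmd6 in DN4 (-0.34 ± 0.12). Psmb9 stood at -0.19 in DN3b cells, with log2 levels of 10.32, 10.68, 10.20 and 10.51 with IL7, against 10.68, 10.77, 10.42 and 10.63 untreated; each sort was lower, the groups overlapped and the adjusted p was 0.201. In DN3b cells Tap1 and Tap2 again fell, by 0.33 and 0.31.

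Whether the IL7 response differed between stages was tested directly. Between DN4 and DN3a the difference passed for 2 of the 41 genes, both lower in DN4 (4.88% of the 41, against 2.63% higher and 2.73% lower among all genes, so the share lies near the background). A second Psme1 probe passed too (-0.36, adjusted p = 0.0464), where the brighter probe stood at -0.04. Psmc1 changed with IL7 by -0.14 in DN4 cells and 0.36 in DN3a cells, a difference of -0.50 ± 0.11 (adjusted p = 0.019). Psme3 changed by 0.05 in DN4 cells and 0.47 in DN3a cells, a difference of -0.42 ± 0.10 (adjusted p = 0.034). Neither difference passed when any 1 of the 4 sorts was left out: the Psmc1 difference was -0.52, -0.58, -0.42 and -0.49 without sorts 1 to 4 and the Psme3 difference -0.43, -0.49, -0.38 and -0.38. Between DN3b and DN3a no gene passed (0.737% higher and 0.964% lower among all genes), with 14 at an unadjusted p under 0.05, of which 13 were lower in DN3b, and the smallest adjusted p was 0.0549 for Psme2. With other normalizations, a stricter detection filter or a trended prior, 2 to 6 genes passed there, all with the smaller response in DN3b. The shares of all genes under these settings, or at an unadjusted p under 0.05, are not given here. Whether the smaller response is particular to these genes was not tested. Between DN4 and DN3b no gene passed either (0.068% higher and 0.238% lower among all genes), and the 3 at an unadjusted p under 0.05 were all lower in DN4.

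Over the 12 comparisons, which share arrays, 35 of the 41 genes passed the test at least once. The same share over all genes is not given here, so the count cannot be judged against a background. In untreated DN3b against DN3a cells alone, 24.9% of all genes were higher and 31% lower. The 6 proteasome genes that passed in no comparison, by the brightest probe, were Psma2, Psma3, Psmb1, Psmd6, Psmd11 and Psme4. Psmb1 moved least of these, between -0.05 and 0.13.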

How the data were processed

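Illumina mouse beadchips measured total RNA (250 ng a sample) of 24 sorted thymocyte cultures. The deposited intensity table holds bead intensities per probe that were not normalized, with a detection p-value each; whether GenomeStudio (2011.1, per the submitters' processing notes) had subtracted background is not given in the sources used here. The authors' deposited series table holds log2 values with a median of 6.734 per array, which quantile normalization of the intensities reproduced within 0.049; it served as an alternative. Array medians of the intensities ran from 93.3 to 119.8, and the number of arrays limits the precision.

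The intensities were background-corrected and normalized with neqc (offset 16, negative controls inferred from the detection p-values) in limma 3.58.1 under R 4.3.3. Of 25697 probes, 23978 carried 1 gene symbol in the platform annotation and 1719 none. Named probes with a detection p-value under 0.05 on 4 or more arrays were kept (12158), with the brightest per gene (8820 genes). IL7 effects and their differences were fitted over 24 arrays with the 12 culture pairs as blocks, and stage differences over the 12 untreated arrays alone, blocked by sort. Every adjusted p in the text is limma's moderated test with Benjamini-Hochberg adjustment over all 8820 genes, threshold 0.05, unless another test is named, and every SE is limma's. The sort numbers come from the sample labels; deviations of the 2 cultures of a pair correlated at 0.238 or more (median 0.465), and 24 of 24 arrays correlated best with their own sort. The fit was run on simulated data. The recovery rates are not given here, so the run does not show how well changes as small as those with IL7 are found. The members and gene lists were chosen with earlier results of these data known. Genes were named by role (the catalytic subunits and PA28), with the 4 greatest rises and falls of each comparison that held in 4 of 4 sorts, the other called members with fewer values, and up to 4 called genes of each context list. Second probes, marker genes, Psmb1, Psmc3, Psmd4, Psmd5, Psmd6, Psmd9 and Psmd11 were singled out after their values were seen; the p of a further probe is adjusted over all 12158 probes kept.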

Additional observations from a re-analysis of the deposited data

Results flagged for a closer look

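In 4 of 81 sets of 4 sort-wise changes, 1 sort stood apart from the others; chance gives this in about 5% of such sets. The IL7 change of Psmb5 in DN3b cells was 0.42 in sort 4, against -0.22 to -0.11 in the other sorts. The IL7 change of Psmb8 in DN4 cells was -0.43 in sort 4, against -0.06 to -0.01. Psme2 differed between untreated DN4 and DN3b cells by -0.07 in sort 3, against -0.19 to -0.17. Psmb7 differed between untreated DN4 and DN3a cells by 0.95 in sort 3, against 0.70 to 0.74. The IL7 response differed between DN4 and DN3a cells, by a contrast of the 2 effects, for Psme3 (-0.42) and Psmc1 (-0.50); both calls were lost when any 1 sort was left out and with no replicate block.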

How the results depend on the processing

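The stage results kept their counts within 1.5 times under every alternative run: 20 to 32 genes for untreated DN3b against DN3a and 19 to 30 for DN4 against DN3a. The count of 0 for untreated DN4 against DN3b, for IL7 in DN3b, for IL7 in DN4 and for the difference between DN4 and DN3b held under every alternative run. The 13 calls for IL7 in DN3a became 7 with no replicate block, 7 with only the arrays of that subset, 1 without sorts 1 and 3, 0 without sorts 2 and 3, and 6 to 8 with 1 sort left out. The 0 calls for the difference of IL7 effects between DN3b and DN3a became 5 without background correction, 5 with the authors' values, 2 with probes detected on all 24 arrays and 6 with a trended, robust prior. The 2 calls for the difference between DN4 and DN3a became 4 under each of these 4 settings, 1 with only the arrays compared, and 0 with no replicate block, without sorts 1 and 3, without sorts 2 and 3, and with any 1 sort left out (0 to 0). Chosen after seeing the data, the 12 IL7-treated arrays gave a mean ratio change of -1.08 for DN4 against DN3a, and turned the sign of Psme2 in DN3b against DN3a (-0.12) and of Psme3 in DN4 against DN3a (-0.19). Of 31 values of single genes, 16 kept their call and sign under all alternatives, 15 lost the call in at least 1, and 2 turned sign. Leaving out sorts reduces the samples, and for the other settings the cause was not tested. The shares of all genes called under the alternatives are not given here. For probes near background, such as Psmc6, the size of a change is uncertain.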
